A study of Oryza sativa with 4 samples.

Results

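The genes described here belong to the thiol and ascorbate redox system of rice: glutaredoxins (GRX), thioredoxins (TRX), ascorbate peroxidases (APX), adenylylsulphate reductase with its reductase-like relatives (APR), and protein disulphide isomerase-like proteins (PDIL). They were taken by name, as every probe set with exactly 1 annotated gene whose symbol or synonym carries one of these family names. This gave 64 probe sets of 49 genes, out of 22436 probe sets with 1 gene and 17905 such genes on the array. The 49 genes comprise 18 glutaredoxins, 11 PDIL genes, 8 thioredoxins, 7 ascorbate peroxidases and 5 genes of the APR group. A further 11 genes with such names, GRXC2, GRXC4, GRXC5, GRXC11, GRXC13, GRXC14, APX3, PDIL5-3, Trxh2-1, Trxm3 and Trxo1, had no probe set assigned to them alone and were not analysed here.

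Glutaredoxins and thioredoxins are small proteins that reduce disulphide bonds in other proteins, the former with electrons from glutathione and the latter from thioredoxin reductases. Ascorbate peroxidases remove hydrogen peroxide with ascorbate as the electron donor, and the ascorbate–glutathione cycle restores the ascorbate. Adenylylsulphate reductase takes its electrons from glutathione and carries out a committed step of sulphate assimilation, which leads to cysteine and glutathione, whereas PDIL proteins form and rearrange disulphide bonds in the endoplasmic reticulum. In plant glutaredoxin names, C stands for an active site with a cysteine at each end and S for one whose second cysteine is replaced by serine.

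RNA came from a piece of 1 cm around the flag leaf collar, the lamina joint between blade and sheath where the leaf angle is set. Each genotype, lc1 and wild type (WT), was hybridised to 2 Affymetrix Rice Genome arrays, which the study describes as biological replicates. Neither the allele of lc1, the background strain nor the number of plants per sample is given in the labels. In the literature LC1 is the auxin-conjugating enzyme GH3.1, whose probe set had scaled signals of 451 and 423 in lc1 and of 1.11 and 9.78 in the wild type. The comparison asks which transcripts differ in the collar of the mutant.

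A value below is a scaled signal, the deposited MAS 5.0 signal multiplied by 1 factor per array so that all 4 arrays share a median. A difference is lc1 minus wild type on the log2 scale, followed by the limma standard error (SE), with n = 2 arrays per genotype throughout. So few arrays limit the precision. Median signals before scaling were 11.8 and 12.1 (WT) and 16.1 and 13.0 (lc1). The ratio of 5′ to 3′ signal for rice Gapdh, which drops in degraded RNA, was 0.164 and 0.236 (WT) and 0.246 and 0.138 (lc1), so that the genotypes overlapped. For rice actin it was 0.082 and 0.100 (WT) and 0.131 and 0.060 (lc1). Both ratios were low on all 4 arrays, highest on lc1 mutant 1 and lowest on lc1 mutant 2. Of 34355 tested probe sets, 9 passed limma at an adjusted p of 0.05 (8 higher and 1 lower in lc1, 1 of them a reporter probe set of the array), which is 0.0262%, and 2803 had an unadjusted p under 0.05. In tissue of this kind, fewer cells of a type and less RNA per cell cannot be told apart.

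Of the 49 genes, 48 had a probe set bright enough to be tested, and 0 of the 48 passed limma after adjustment over all tested probe sets. At gene level, with the probe set of highest mean signal standing for each gene, 4 of 16291 tested genes passed, or 0.0246%. At an unadjusted limma p under 0.05, 11 of the 48 redox genes were higher in lc1 and 3 were lower. The corresponding shares of all tested genes were 3.83% higher and 3.92% lower, against 22.9% and 6.25% of the redox genes. Taken by size instead, 7 redox genes lay at least 1.5-fold higher without overlap of the genotypes' arrays, and 3 lay at least 1.5-fold lower in the same way. These are 14.6% and 6.25% of the members, where the shares over all tested genes were 5.87% and 7.06%. The redox genes lower in lc1 were therefore near the background share under either rule, and the higher ones above it. Of the 48, 37 (77.1%) had a difference above 0, against 46.7% of all tested genes. With an array left out in turn this count was 32 to 37, against 7166 to 8138 of all 16291 tested genes. Their median difference was 0.19, and that of all tested genes was -0.03. Most redox genes gave high signals, and 28 of the 48 lay at or above the 90th percentile of signal over all probe sets. In that bright range 26 of the 28 (92.9%) had a difference above 0, against 55.7% of the 4652 tested genes there, and 3 of the 28 met the rule of 1.5-fold with no overlap in the higher direction, against 2.77%.

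**Figure D1:**
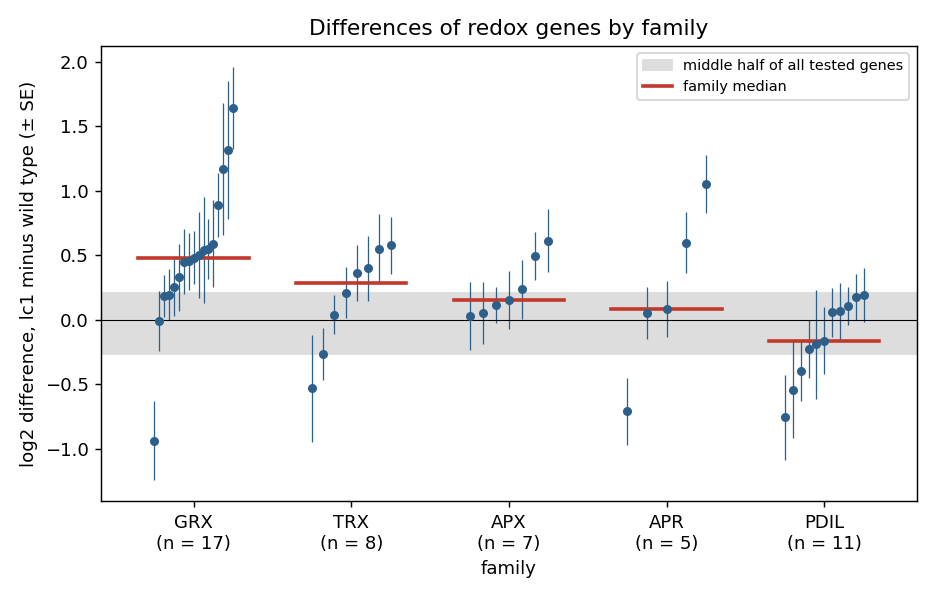
Log2 difference (lc1 minus wild type, y axis) of each tested redox gene by family (x axis). Points are genes, bars the limma SE over 2 arrays per genotype, red lines the family medians (0.48 for GRX, 0.29 for TRX, 0.15 for APX, 0.09 for APR and -0.16 for PDIL), and the grey band the range from the lower to the upper quartile of all 16291 tested genes, from -0.27 to 0.21. The glutaredoxins reach highest and hold the lowest point too.

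The glutaredoxins had the highest family median, 0.48 or 1.40-fold, over 17 tested genes. In 15 of them the difference was above 0, and in 9 the lc1 arrays lay wholly above the wild type at any size (52.9%, against 17.6% of all tested genes). In 1 they lay wholly below, against 21.8% of all tested genes. An unadjusted limma p under 0.05 was reached by 6 in the higher direction (GRXC1, GRXC8, GRXC10, GRXS3, GRXS7 and GRXS9) and by 1 in the lower (GRXC7). These are 35.3% and 5.88% of the family, against 3.83% and 3.92% of all tested genes. The 6 GRXC genes had a median of 0.53 and the 11 GRXS genes one of 0.45, so that genes of both name types lay side by side. Taken against the wild-type mean, lc1 mutant 1 had a GRX median of 0.50 and lc1 mutant 2 one of 0.43.

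GRXC10 (LOC4351046) read 52.4 and 73.6 in the wild type against 167 and 224 in lc1. Each lc1 array was more than double the brighter wild-type array. The difference was 1.64 ± 0.32 (3.12-fold), with a limma adjusted p of 0.211 over all tested probe sets, which does not pass. Leaving out lc1 mutant 1 gave 1.85 and leaving out lc1 mutant 2 gave 1.43. Raising every signal to its array's background floor left 1.64 with a limma adjusted p of 0.0308. With signals so raised, 277 of 34355 tested probe sets passed, against 9 without it. Over the alternatives that kept all arrays, its limma adjusted p ran from 0.00532 to 0.837. Over all alternatives the difference stayed between 1.40 and 1.89.

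GRXS9 (LOC9269297) read 754 and 860 in the wild type against 1876 and 1185 in lc1. The genotypes did not overlap, but the lc1 arrays stood apart from each other, and the difference was 0.89 ± 0.25 (limma adjusted p = 0.391). It was 1.22 without lc1 mutant 2 (limma adjusted p = 0.0176) and 0.56 without lc1 mutant 1, and its adjusted p over all alternatives ran from 0.0176 to 0.925. GRXS3 (LOC4327691), a dim gene only just above the background floor in the wild type, read 14.3 and 18.7 against 58.3 and 23.2. Most of its difference of 1.17 ± 0.51 (limma adjusted p = 0.611) lay on lc1 mutant 1, and without that array it was 0.50. GRXC15 (LOC4352426) read 301 and 630 against 675 and 636. Wild type 2 lay just under both lc1 arrays, so that the difference of 0.59 ± 0.34 (limma adjusted p = 0.691) was 0.06 without wild type 1 and was 1.12 without wild type 2.

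GRXC7 (LOC4338050) ran against its family. It read 489 and 535 in the wild type against 357 and 200 in lc1, with both lc1 arrays lower. The difference was -0.94 ± 0.31 (limma adjusted p = 0.497), and leaving out lc1 mutant 1 gave -1.35 and leaving out lc1 mutant 2 gave -0.52. Over the alternatives that kept all arrays, its limma adjusted p ran from 0.158 to 0.842. GRXC3 (LOC4329462), also called ROXY2 after an Arabidopsis gene of flower development, was under the background floor on all 4 arrays, with signals from 0.700 to 6.80, and was not tested.

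**Figure D2:**
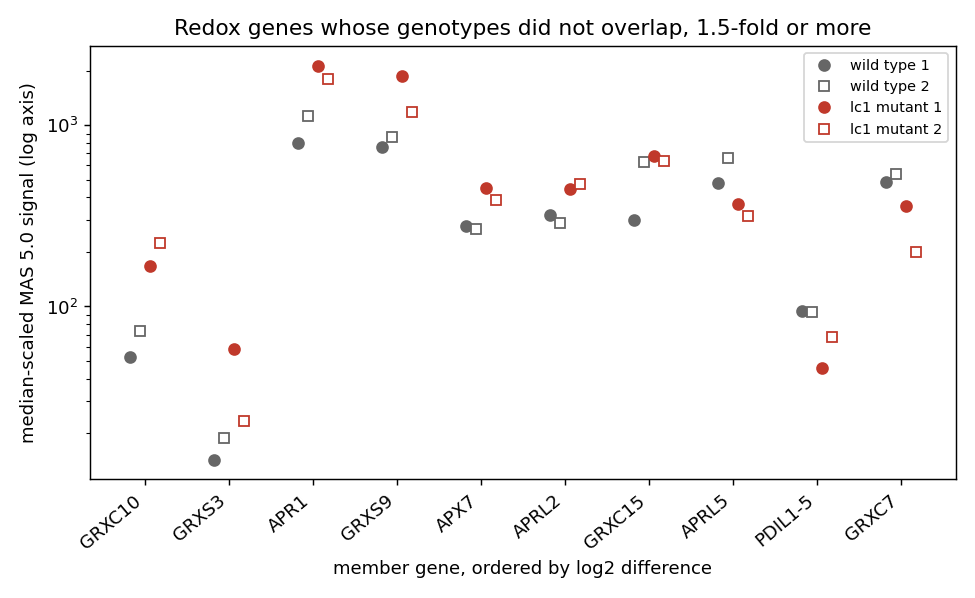
Scaled signal (log axis) on each of the 4 arrays for the 10 tested redox genes whose genotypes did not overlap and differed at least 1.5-fold, ordered by log2 difference; circles are replicate 1 and squares replicate 2, grey is wild type and red lc1. For GRXC10 and APR1 the lc1 arrays stand well clear of the wild type, while for GRXC15 wild type 2 (630) nearly touches lc1 mutant 2 (636).

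The other glutaredoxins differed by less, or overlapped. GRXC8 read 693 and 618 against 927 and 900, a difference of 0.48 ± 0.21. GRXS7 read 425 and 534 against 739 and 657, a difference of 0.55 ± 0.23. Both had lc1 arrays close to each other and clear of the wild type, at a limma adjusted p of 0.605 and 0.596. GRXS1 (0.45 ± 0.22), GRXS4 (0.45 ± 0.25) and GRXS12 (0.25 ± 0.23) also showed no overlap. GRXC1 had a large difference, 1.31 ± 0.54, from scattered signals of 76.2 and 183 against 176 and 492, and the genotypes overlapped. GRXS5 read 591 and 713 against 1572 and 569, and GRXS2 read 475 and 755 against 1149 and 627, so that in both only lc1 mutant 1 stood out. GRXC6, whose probe set had the highest signal of the family, read 3366 and 3917 against 3814 and 4466, a difference of 0.18 ± 0.16 with overlap. GRXS10, GRXS11 and GRXS6 gave 0.33, 0.19 and -0.01, each with overlap.

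The 8 thioredoxins had a median of 0.29 (1.22-fold), 6 of them above 0, and 0 met the rule of 1.5-fold with no overlap. Trxh2-2, of the h type that is mostly cytosolic, came nearest, with 912 and 971 in the wild type against 1671 and 1176 in lc1. Its difference was 0.58 ± 0.22 (limma adjusted p = 0.567). Trxh4-1 read 209 and 223 against 372 and 269, a difference of 0.55 ± 0.27, again highest on lc1 mutant 1. Of the m type, which works in chloroplasts, Trxm2 (533 and 601 against 694 and 765) and Trxm1 (950 and 980 against 1048 and 1189) were higher on both lc1 arrays by 0.36 ± 0.22 and 0.21 ± 0.20. Trxm5 gave -0.27 ± 0.20 with overlap. Trxh1, with the highest signal of the family, read 4014 and 3505 against 3978 and 3741, and its difference of 0.04 ± 0.15 had no settled sign, at -0.057 without wild type 2 and -0.004 without lc1 mutant 1. Trxh5 was dim and gave -0.53 ± 0.42. The h type had a median of 0.40 over 5 genes and the m type one of 0.21 over 3.

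Of the ascorbate peroxidases 7 of 7 lay above 0 by small amounts (6 under quantile normalization or without lc1 mutant 1, and 5 without wild type 1 or without lc1 mutant 2), with a median of 0.15 (1.11-fold) and a range from 0.03 to 0.61. APX7, a chloroplast stroma form in rice, read 278 and 268 in the wild type against 451 and 387 in lc1, with no overlap. Its difference was 0.61 ± 0.24 (1.53-fold, limma adjusted p = 0.572). APX4, a peroxisomal form, read 1742 and 1444 against 2088 and 2394, a difference of 0.50 ± 0.19 (limma adjusted p = 0.561). APX7 and APX4 were the 2 peroxidases with an unadjusted limma p under 0.05 (28.6%, against 3.83% of all tested genes). The cytosolic form APX2, with the highest signal of the family, read 4230 and 4327 against 4567 and 4709. That is a small step with tight replicates, 0.12 ± 0.14, whereas the other cytosolic form APX1 read 2272 and 3262 against 3426 and 2328 and showed no order by genotype. APX8, which sits on the thylakoid membrane, read 1464 and 1548 against 1372 and 2044 (0.15 ± 0.22). APX6 gave 0.24 ± 0.23 without overlap, and APX5 gave 0.03 ± 0.26 with overlap.

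The APR group had 5 genes that went both ways, with a median of 0.09 that was -0.087 without lc1 mutant 2. APR1 (LOC4343348), the adenylylsulphate reductase, read 797 and 1127 in the wild type against 2132 and 1804 in lc1. The mutant arrays lay far above the wild type. The difference was 1.05 ± 0.22 (2.07-fold, limma adjusted p = 0.251), and leaving out lc1 mutant 2 gave 1.17. Leaving out any other array gave 0.80 to 1.30. Its limma adjusted p over the alternatives that kept all arrays ran from 0.00297 to 0.842. A separate probe set of APR1, without the suffix that marks possible cross-hybridisation, read 755 and 877 against 1884 and 1743, a difference of 1.16 ± 0.19 (limma adjusted p = 0.128).

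The APR-like (APRL) proteins resemble the thioredoxin-like part of the reductase. APRL2 read 320 and 287 in the wild type against 444 and 475 in lc1, a difference of 0.60 ± 0.24 (limma adjusted p = 0.572). Both lc1 arrays were higher, by 0.55 and 0.65 against the wild-type mean, and the mean difference was just over 1.5-fold. APRL5 went the other way, with 478 and 656 against 369 and 317, a difference of -0.71 ± 0.26 (limma adjusted p = 0.543) that was -0.48 without wild type 2 and -0.94 without wild type 1. APRL3 (0.09 ± 0.22) and APRL4 (0.05 ± 0.20) overlapped.

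The PDIL genes had a median of -0.16, with 5 of 11 above 0 and 6 below, and a range from -0.76 to 0.19. PDIL1-1, the major disulphide isomerase of the endoplasmic reticulum, read 3255 and 3285 in the wild type against 3515 and 3533 in lc1. The arrays of a genotype nearly coincided, and the difference was 0.11 ± 0.15 (limma adjusted p = 0.865). PDIL1-5 was the 1 member past 1.5-fold without overlap (9.09%, near the 7.06% of all tested genes), with 94.6 and 93.2 against 45.5 and 68.0. Its difference of -0.76 ± 0.33 (limma adjusted p = 0.607) shrank to -0.47 with lc1 mutant 1 left out and reached -1.05 with lc1 mutant 2 left out. PDIL1-4 read 390 and 408 against 297 and 310, also lower on both lc1 arrays, by -0.39 ± 0.24. PDIL1-2 was dim and gave -0.54 ± 0.38. The remaining 7 lay between -0.23 (PDIL5-4) and 0.19 (PDIL2-1, LOC4337858). The gene table gives the name PDIL2-1 also to the gene called PDIL1-4 here (LOC4327971), and PDIL5-1 both to LOC4332486, so called here (0.18), and to LOC4347226, called PDIL2-3 here (0.06). The distance between the GRX and PDIL medians, 0.48 and -0.16, was not tested, and both medians moved with the wild-type arrays: with wild type 1 left out they were 0.38 and 0.045, and with wild type 2 left out 0.64 and -0.33.

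**Figure D3:**
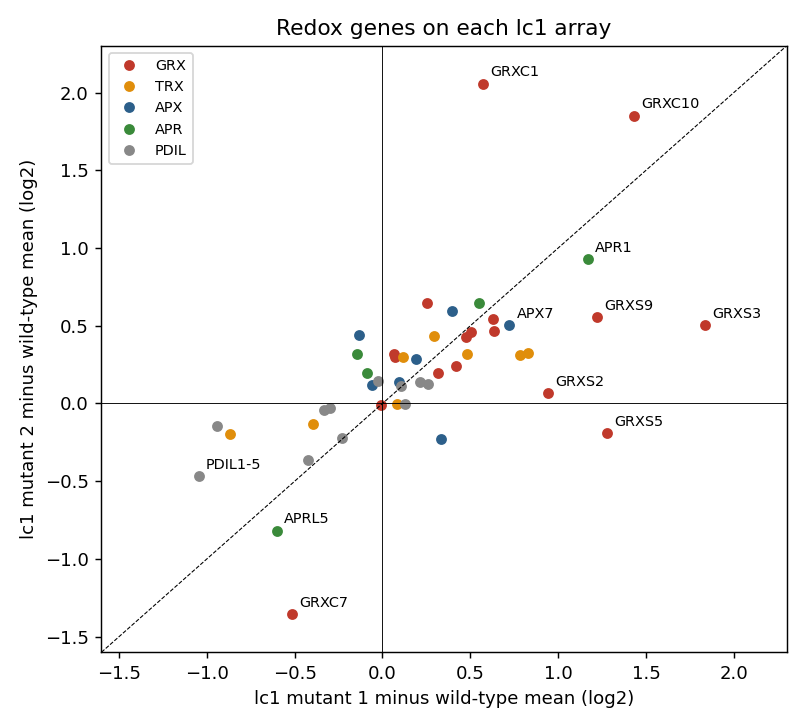
Log2 difference of each tested redox gene on lc1 mutant 1 (x axis) and lc1 mutant 2 (y axis), each against the mean of both wild-type arrays, coloured by family; the dashed line marks equal values. GRXC10 (1.43 and 1.85) and APR1 (1.17 and 0.93) lie near the line, GRXS5 (1.28 and -0.19) and GRXS3 (1.84 and 0.50) lie toward lc1 mutant 1, and GRXC1 (0.57 and 2.06) toward lc1 mutant 2.

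The mutant arrays did not agree on every gene. Over the 48 redox genes, lc1 mutant 1 had a median of 0.20 and lc1 mutant 2 one of 0.22. GRXS5, GRXS2, GRXS3 and GRXS9 were high mainly on lc1 mutant 1, and GRXC1 mainly on lc1 mutant 2. Without lc1 mutant 1, 6 members were at least 1.5-fold higher with no overlap and 2 lower (all tested genes 6.34% and 7.99%), and without lc1 mutant 2 these were 11 and 4 (12.7% and 14.5%). For the glutaredoxins the counts of higher genes were 3 and 7 of 17. With wild type 1 left out the members counted 8 higher and 4 lower, and with wild type 2 left out 12 and 2 (all tested genes 7.27% and 10.7%, and 10.3% and 9.23%).

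**Figure D4:**
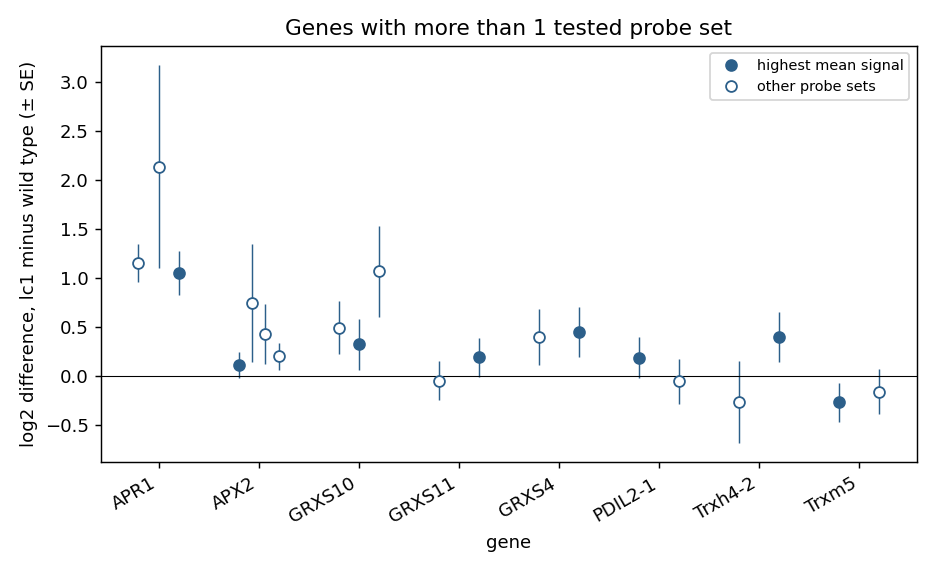
Log2 difference (lc1 minus wild type, with limma SE over 2 arrays per genotype) of every tested probe set of the 8 redox genes with more than 1, where filled points are the probe set of highest mean signal. The bright probe sets of APR1 (1.05 and 1.16) lie close together, and Trxh4-2 (0.40 and -0.26) shows opposite signs.

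Several genes were measured more than once. The bright probe sets of APX2 gave 0.12 ± 0.14 and 0.20 ± 0.14, and those of GRXS4 gave 0.45 ± 0.25 and 0.40 ± 0.29. GRXS10 read above 0 on all 3 of its probe sets, from 0.33 to 1.07, the last from a dim one that read 11.3 and 17.3 against 35.9 and 23.9. The pairs of GRXS11 (0.19 and -0.05), PDIL2-1 (0.19 and -0.05) and Trxh4-2 (0.40 and -0.26) differed in sign. For Trxh4-2 the lc1 arrays lay wholly above the wild type in the brighter probe set (0.40 ± 0.25) and overlapped it in the other (-0.26 ± 0.42), and the difference between probe sets was not tested. The dimmest probe set of APR1 (16.9 and 16.8 in lc1) and one of APX2 lay near the floor and add little.

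Partner genes of the same pathways leaned above 0 in 5 of the 6 lists, with medians from 0.10 to 0.31, and below 0 among the TGA factors. In the order below, those 5 lists had 5 of 6, 5 of 7, 8 of 12, 6 of 7 and 4 of 6 genes above 0. The share was 46.7% of all tested genes, and 55.7% of those at or above the 90th percentile of signal. With so few genes per list, the lean was not tested. In the ascorbate–glutathione cycle 6 genes were tested, with a median of 0.19 and 5 above 0. GME-2, a GDP-mannose epimerase of ascorbate synthesis, read 360 and 455 against 643 and 551 (0.56 ± 0.24). It was the 1 member with an unadjusted limma p under 0.05 (all tested genes 3.83% higher and 3.92% lower). Of 7 genes for superoxide and hydrogen peroxide (median 0.14), the catalase gene CatB was the 1 such member, with 2026 and 2085 against 2797 and 2575 (0.39 ± 0.16). None of the 2 lists' genes differed 1.5-fold without overlap or passed limma after adjustment (lowest adjusted p = 0.611 and 0.595).

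Among 12 thioredoxin reductases, peroxiredoxins and nucleoredoxins the median was 0.10, and 2 (all tested genes 5.87%) met the rule of 1.5-fold higher with no overlap, both nucleoredoxins, oxidoreductases built of thioredoxin-like domains. Nrx1-1 read 391 and 445 in the wild type against 1180 and 721 in lc1, a difference of 1.15 ± 0.28 (limma adjusted p = 0.317). Nrx1-2 read 534 and 565 against 1014 and 738, a difference of 0.66 ± 0.24 (limma adjusted p = 0.542). Both were higher on each lc1 array, and more so on lc1 mutant 1. The probe set of Nrx1-2 carries the suffix that marks possible cross-hybridisation. Another nucleoredoxin of the list, Nrx2, went the other way, at 314 and 385 against 304 and 233 (-0.38 ± 0.27, no overlap). The reductases NTRA (0.06 ± 0.32), NTRB (0.05 ± 0.20) and NTRC (-0.17 ± 0.36) overlapped between the genotypes.

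Of 7 genes for cysteine and glutathione synthesis, the products downstream of APR1, 6 lay above 0 and the median was 0.31, with 0 past an unadjusted limma p of 0.05 and 0 past 1.5-fold without overlap. GSH1-1, which makes the glutathione precursor, read 713 and 691 against 489 and 687 (-0.28 ± 0.24). The endoplasmic reticulum folding genes, partners of the PDIL proteins, had a median of 0.13 over 6 tested genes with 0 past either rule, and the chaperone BiP read 1349 and 1714 against 2068 and 1758 (0.33 ± 0.20). The co-chaperone gene ERDJ2 had the largest difference of these 6 and lay the other way, at 208 and 265 against 165 and 149 (-0.58 ± 0.27, no overlap). The 11 TGA transcription factors, a family that in Arabidopsis binds certain glutaredoxins, had a median of -0.23 with 2 above 0 and 9 below (46.7% of all tested genes lay above). In 6 of them the lc1 arrays lay wholly below the wild type (all tested genes 21.8%), though never by 1.5-fold. The largest difference of the 11 lay the other way, in the dim gene TGAL4 (21.6 and 25.6 against 25.5 and 59.7, 0.73 ± 0.47, with overlap). LG2, TGAL7, TGAL8 and TGAL11, all below 0, were dim too. TGAL6 (862 and 777 against 543 and 556, -0.57 ± 0.21, limma adjusted p = 0.556) was the 1 with an unadjusted limma p under 0.05 (all tested genes 3.92% lower).

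Markers of the tissue gave the following levels. LG1, without which rice leaves form no ligule or collar, read 147 and 261 in the wild type against 108 and 137 in lc1 (-0.69 ± 0.34, limma adjusted p = 0.644). Of 8 ligule and YABBY markers, 7 were bright enough to be tested, LG2 also counting among the TGA factors above, and 0 passed limma after adjustment. Their median difference was -0.36, and 3 of the 7 were at least 1.5-fold lower without overlap (all tested genes 7.06%), namely LG1, YAB6 and YAB4. YAB6, of the YABBY family of leaf polarity factors, read 378 and 411 against 244 and 276 (-0.60 ± 0.24, limma adjusted p = 0.583). It was the 1 with an unadjusted limma p under 0.05 (all tested genes 3.92% lower). YAB4 was dim, at 5.90 and 14.5 against 5.10 and 5.20. YAB1 (0.20 ± 0.25) and YAB2 (0.29 ± 0.24) lay above 0. For all 8 markers the summed signal was 1240 and 1521 (WT) against 1312 and 1246 (lc1). The summed signal of 7 green leaf markers was 19243 and 22031 against 17549 and 22438, and overlapped. Of 5 anther and pollen genes 1 passed the filter on dim probe sets (C6, near the floor at 12 and 5.5 against 14.3 and 17.7) and 2 were under the floor on all arrays. Of 10 seed storage genes 7 were under the floor on all arrays, and GluB5 lay near it. GLUA2 (257 and 167 against 139 and 175) and RAG2 (42.0 and 32.7 against 30.1 and 36.8) were above the floor on every array. The part of tissue makeup in the redox differences was not tested.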

How the data were processed

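Each deposited value is an intensity, the linear MAS 5.0 signal of a probe set on an array, made by the authors with the Affymetrix Microarray Suite per the series' design text. R 1.8.0 is named in the submitters' processing notes. The authors' detection calls were not used here. Of 57381 probe sets, 123 controls were left out. Signals of 0 (18 values) were set to 0.05, and log2 signals were centred on each array's median, by factors of 1.11, 1.09, 0.817 and 1.01. The test took probe sets whose mean log2 signal reached the 40th percentile (2.58, or 5.96 linear). It was run with limma 3.58.1 in R 4.3.3 (lmFit and trended eBayes on genotype alone, leaving 2 residual degrees of freedom; p-values 2-sided and adjusted by Benjamini-Hochberg over all 34355). The fit was run on simulated data with planted differences larger than the gene-level difference of any tested redox gene. That run does not show how well differences of their size are found.

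The background floor is the 95th percentile of 23 control probe sets without a rice target, scaled per array (10.1, 12.9, 11.2 and 13.0). Genes were named through the platform annotation and the gene table of ASM3414082v1, which matched all 22436 probe sets with 1 gene, 95 having several and 34727 none. Probe sets ending in _s_at, _x_at or _a_at can cross-hybridise.

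Members, lists and the choice of median scaling were made with earlier results of these data known, GRXC10 and APR1 among them. Names that matched a list by accident (BRI1-interacting bip genes, a starch synthesis gene, PSA) were removed, and no root marker matched. The 14 members described in full were those at least 1.5-fold different with no overlap and the gene of highest signal in each family. Array signals of some other members were also printed, picked by no rule set in advance. Pathway genes at least 1.5-fold different with no overlap were named, and the other pathway and marker genes named were chosen after their values were seen.

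Titles number the arrays of each genotype 1 and 2. Deviations of same-numbered arrays correlated at -0.036 over the tested probe sets, and nothing in the labels pairs them, so no pairing was assumed. At most 1.63% of signals were identical between any 2 arrays.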

Additional observations from a re-analysis of the deposited data

How the results depend on the processing

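The number of probe sets past limma's adjusted threshold, 9, depended on the settings: it was 1 with signals as deposited, 4 under quantile normalization, 277 with signals raised to the floor, 2 with no filter, 32 with the 60th percentile filter, and 0 with a common variance prior (2483 at an unadjusted p under 0.05) or without moderation (2020). Leaving out 1 array gave 4 to 1163, where the lone array of a genotype is assumed to vary like the others. With the replicate number as a block it was 634, and 138 with the numbers crossed. Of the member probe sets, 5 passed under the replicate block, 1 with the block crossed and 3 with signals raised to the floor. Of all 34355 tested probe sets, 634, 138 and 277 passed under these settings. Among the 5 were GRXC10, GRXS9 and APR1, at limma adjusted p of 0.00532, 0.0472 and 0.00297. Member passes with an array left out are not counted here, because 1 genotype then has a single array. No other alternative that kept all arrays made a member pass, and the cause of these shifts was not tested.

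As deposited, the median tested probe set lay 0.22 higher in lc1, and values under that setting are relative to it. Family medians, without 1 array, ran from 0.38 to 0.64 for GRX, 0.11 to 0.29 for APX, -0.33 to 0.045 for PDIL, -0.087 to 0.32 for APR and 0.21 to 0.31 for TRX, so that the sign was not kept for PDIL and APR. Averaging a gene's probe sets moved APX to 0.24 and TRX to 0.45. TRX was also 0.34 as deposited, 0.26 under quantile normalization and, in an alternative chosen after seeing the data, 0.36 without the _s_at, _x_at and _a_at probe sets. The GRX median lay between 0.47 and 0.54 under the settings that kept all arrays. Of 195 values of the 14 members described in full, 183 kept their sign and side of the threshold, 10 newly passed and 2 changed sign (Trxh1, 0.04 with all arrays, -0.057 without wild type 2, -0.004 without lc1 mutant 1, and up to 0.138 without wild type 1).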
